A study of Homo sapiens with 4 samples.

Results

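ODF2 and the genes of the centriolar appendages were followed across the 4 arrays of the series: 9 genes were listed by function, 8 of them (ODF2, CEP128, NIN, CNTRL, CEP164, SCLT1, FBF1 and CEP89) had probe sets in the platform annotation, and these came to 30 of the 54613 probe sets of the table. CEP83 was not analysed here. The genes were grouped around ODF2 because ODF2 itself had been chosen by its low DAXX-KD minus control values in both lines, so all knockdown differences of these genes are given as a description and no test of them was made.

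A centriole that has matured in an earlier cell cycle carries 2 sets of appendages at its outer end. The distal appendages (CEP83, SCLT1, CEP89, FBF1 and CEP164) dock the centriole at the plasma membrane so that a primary cilium can form. The subdistal appendages (ODF2, also called cenexin, with CEP128, CNTRL and NIN) hold microtubule ends at the centriole. ODF2 was first known as a protein of the outer dense fibres of the sperm tail.

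Total RNA was measured on 1-colour Affymetrix arrays in 2 human neuroendocrine tumour lines, QGP1 (pancreatic) and NCI-H727 (bronchial). Each line received by electroporation either siRNA against DAXX (DAXX-KD), the chaperone of histone H3.3, or a universal negative control siRNA (DAXX-NC, called control here), at 50 nM in the final mix. There was 1 array for each of the 4 groups and no replicate. 2 DAXX siRNAs are named, without saying whether they were pooled, and the line names rest on the sample titles, since QGP1 is also what the source entries for NCI-H727 and all 4 descriptions name. Values are log2 expression after RMA, which subtracts background, quantile-normalises the arrays and summarises each probe set.

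The array medians lay between 5.31 and 5.36. Over all probe sets the Pearson correlation between control and knockdown arrays was 0.995 for QGP1 and 0.992 for NCI-H727, and 0.924 between the control arrays of the 2 lines. DAXX, the targeted gene, read 8.52 in QGP1 control, 6.56 in QGP1 DAXX-KD, 7.35 in NCI-H727 control and 6.14 in NCI-H727 DAXX-KD at its brighter probe set. At its second probe set, 216038_x_at, DAXX read 8.18, 6.03, 7.02 and 6.19 in the same order. All 9 measured neuroendocrine markers were at or above the level filter on every array, with chromogranin A (CHGA) between 11.14 and 12.27. In addition 5 of 9 fibroblast and endothelial markers and 2 or 3 of 4 measured leukocyte markers reached it. The leukocyte phosphatase PTPRC was below it on all 4 arrays (3.0 to 3.68), but the leukocyte marker LYZ was above it on all 4 (6.85 to 8.90). The fibroblast marker COL1A1 was also above it on all 4 (7.25 to 7.66). Of these markers 2 were past 2-fold in QGP1. The endothelial marker PECAM1 went from 5.74 in control to 6.80 in DAXX-KD, and the neuroendocrine marker DDC from 11.66 to 10.59, with 11.41 and 10.83 in NCI-H727. The part of such cells in the results was not tested. The level filter is a mean over the 4 arrays of at least 4.85, the 40th percentile of all probe sets; 32768 probe sets passed it, among them 27 of the 30 appendage probe sets, with at least 1 for each of the 8 genes.

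The promoters were read from RefSeq (GRCh38.p14) as windows from 250 bases before to 50 bases after each annotated start. All 9 genes matched, with 14 windows, 4 of them of ODF2. Many genes of centrioles and cilia are known to carry an X-box, the binding motif of the RFX transcription factors. The letters searched, on both strands and after the windows had been looked at, were the short motif GTTGCC and a palindrome made of GTNNCC, 2 further bases and GGNNAC, which can overlap. The palindrome was found in 1 of the 14 windows, an ODF2 window at chr9:128455756-128456055 (plus strand), and in 2.08% of all 35116 windows of the same length. The short motif was found in 4 of the 14 windows, 1 each of CEP128, CEP89, CEP164 and CNTRL, and in 12.2% of all windows. The ODF2 window with the palindrome is shown with the CEP128 window (chr14:80941689-80941988, minus strand) and the CEP89 window (chr19:32971909-32972208, minus strand), because ODF2 and CEP128 were the genes past 2-fold in the knockdown and CEP89 was near 0 at its brightest probe set; capitals mark the matched letters.
ODF2: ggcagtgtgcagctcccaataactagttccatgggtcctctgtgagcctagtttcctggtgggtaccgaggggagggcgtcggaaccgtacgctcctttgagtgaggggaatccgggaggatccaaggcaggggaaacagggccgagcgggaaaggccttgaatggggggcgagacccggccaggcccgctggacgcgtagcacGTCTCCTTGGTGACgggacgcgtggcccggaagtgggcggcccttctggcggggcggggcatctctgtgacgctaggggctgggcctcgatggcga
CEP128: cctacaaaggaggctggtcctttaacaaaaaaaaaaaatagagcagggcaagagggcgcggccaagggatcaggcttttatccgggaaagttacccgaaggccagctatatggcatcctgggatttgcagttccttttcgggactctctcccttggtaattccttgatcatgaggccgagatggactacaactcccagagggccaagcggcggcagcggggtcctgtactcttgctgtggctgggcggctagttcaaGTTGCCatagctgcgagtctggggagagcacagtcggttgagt
CEP89: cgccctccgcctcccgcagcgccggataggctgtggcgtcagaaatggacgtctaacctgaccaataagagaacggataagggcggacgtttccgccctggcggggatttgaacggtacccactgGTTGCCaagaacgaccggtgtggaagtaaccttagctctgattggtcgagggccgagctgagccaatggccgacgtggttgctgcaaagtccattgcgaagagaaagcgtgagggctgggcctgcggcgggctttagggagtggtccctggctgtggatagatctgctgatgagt
A match here is a run of letters in a window, and the arrays give no measure of binding.

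ODF2 was lower after the knockdown in both lines and at both of its probe sets. At probe set 225617_at it read 7.82 in QGP1 control and 5.69 in QGP1 DAXX-KD. In NCI-H727 the same probe set read 7.32 in control and 4.42 in DAXX-KD, the last under the level filter, where RMA compresses differences. Both control arrays were above both DAXX-KD arrays. The difference was -2.13 in QGP1, a 4.38-fold lower signal that left 22.8% of control, and -2.90 in NCI-H727, where no fold is given because of the low end value.

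The second ODF2 probe set, 210415_s_at, read 6.56 in QGP1 control and 5.30 in QGP1 DAXX-KD. It read 6.64 in NCI-H727 control and 5.32 in NCI-H727 DAXX-KD. Here too the 2 control arrays stood above the 2 DAXX-KD arrays, and the lines were nearly alike. The signal was lower by 2.39-fold for QGP1 (-1.26) and by 2.5-fold for NCI-H727 (-1.32). The probe sets thus gave the same direction but different sizes: they lay 0.87 apart in QGP1 and 1.58 apart in NCI-H727, where probe sets of 1 gene disagree with a typical SD of 0.202 and 0.275. The suffix _s_at marks a probe set whose probes can match several transcripts, which was the case for the smaller of the 2 differences. For DAXX itself the QGP1 difference was -1.96 and the NCI-H727 difference -1.21 at the brighter probe set. At its second probe set, 216038_x_at, they were -2.14 and -0.83, the latter 1.78-fold lower and so short of 2-fold. The larger DAXX difference was thus in QGP1 at both probe sets, and the larger ODF2 difference at 225617_at in NCI-H727.

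**Figure D1:**
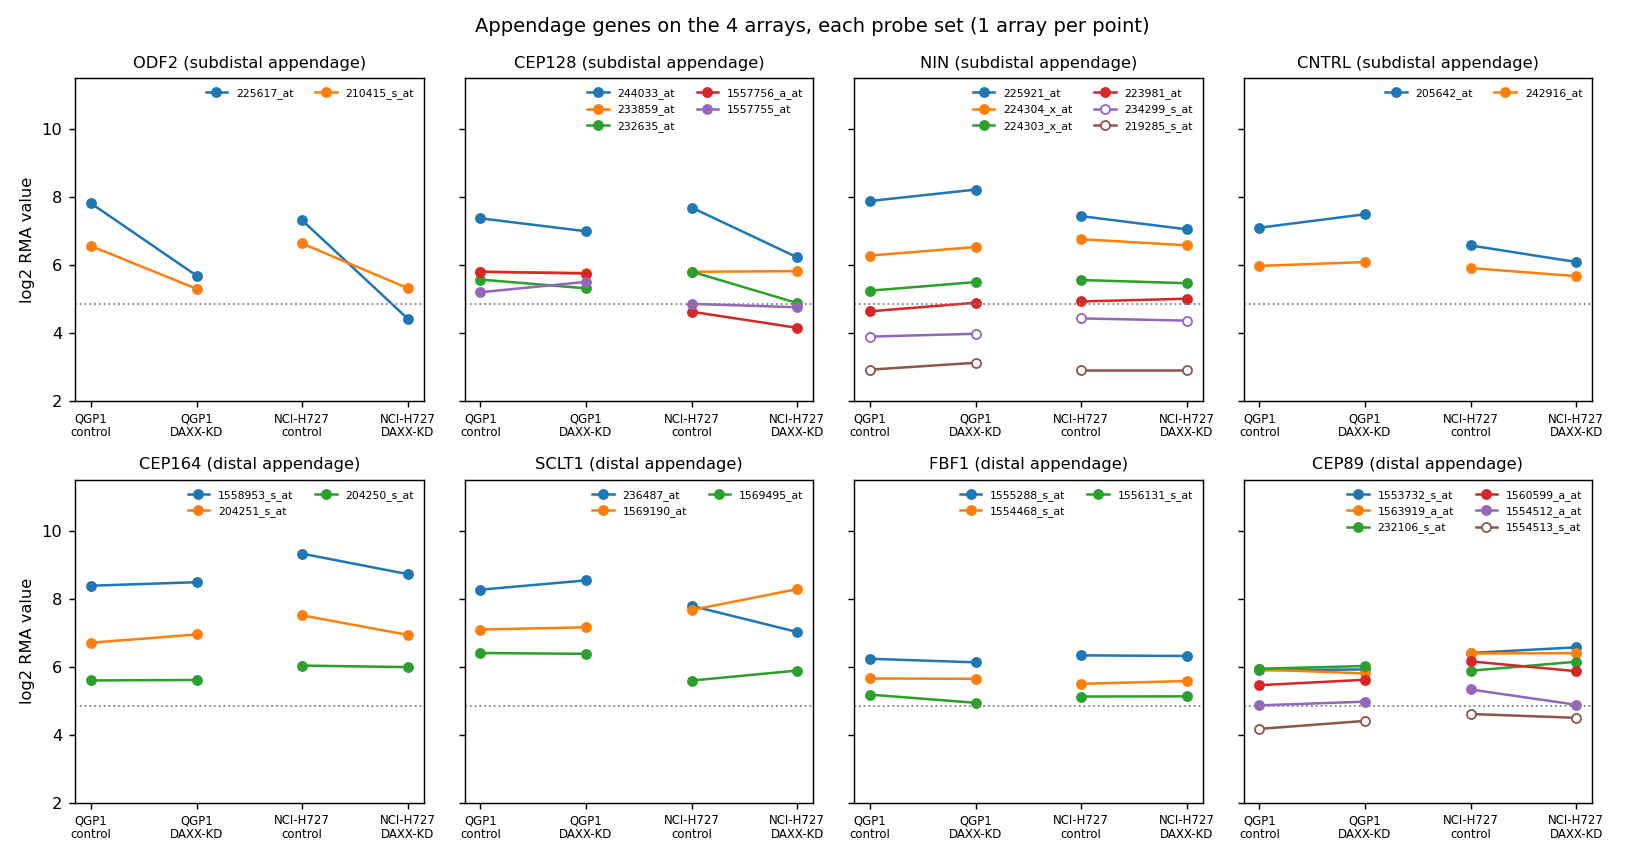
Log2 RMA values (y axis) of every appendage probe set on the 4 arrays (x axis), 1 panel per gene; lines join control and DAXX-KD of 1 line, open symbols are probe sets under the level filter, and the dotted line is the filter level of 4.85. Both ODF2 probe sets are lower in DAXX-KD than in control in both lines, CEP128 at 244033_at goes from 7.70 to 6.23 in NCI-H727, and the FBF1 probe sets differ from control by -0.24 to 0.08.

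As a share of the group, 2 of the 27 appendage probe sets past the filter were at least 2-fold lower in QGP1, both of ODF2, against 0.22% of all probe sets. In NCI-H727 3 of 27 were at least 2-fold lower, against 1.58% of all, namely both ODF2 probe sets and 1 of CEP128. None of the 27 was at least 2-fold higher in QGP1 (0.165% of all) or in NCI-H727 (0.15% of all). ODF2 was the reason for the choice of the group, so nothing is read from these shares. Without ODF2, 0 of 25 probe sets were 1.5-fold lower in QGP1 (1.54% of all) and 0 were 1.5-fold higher (1.63% of all), with differences from -0.38 to 0.40. In NCI-H727 4 of the 25 were at least 1.5-fold lower (6.21% of all) and 1 was at least 1.5-fold higher (1.54% of all), with differences from -1.47 to 0.61. The median over the 27 probe sets was 0.07 in QGP1 and -0.18 in NCI-H727, beside 0.01 and 0.003 over all 32768.

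CEP128, which recruits other proteins to the subdistal appendage next to ODF2, was lower in NCI-H727 DAXX-KD at 4 of its 5 probe sets, by very different amounts. At 244033_at, the brightest, it read 7.38 in QGP1 control, 7.00 in QGP1 DAXX-KD, 7.70 in NCI-H727 control and 6.23 in NCI-H727 DAXX-KD. The NCI-H727 DAXX-KD array was the lowest of the 4. The signal was 2.77-fold lower in that line (-1.47) and 1.30-fold lower in QGP1 (-0.38). At 232635_at the values were 5.57, 5.32, 5.81 and 4.88 in the same order, with differences of -0.26 in QGP1 and -0.93 in NCI-H727, so both of these probe sets were lower in both lines. At 233859_at they were 5.80, 5.77, 5.80 and 5.82, and that probe set did not separate the arrays. At 1557756_a_at the NCI-H727 values, 4.63 and 4.15, were under the filter level, and at 1557755_at the differences were 0.31 in QGP1 and -0.10 in NCI-H727. The mean over the 5 probe sets was -0.08 in QGP1 and -0.59 in NCI-H727, so the 2-fold value of CEP128 rests on 1 probe set.

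NIN (ninein), which anchors microtubules at the subdistal appendages, was slightly higher in QGP1 DAXX-KD at all 6 of its probe sets, by 0.08 to 0.34. In NCI-H727 4 of the 6 were lower, 1 was higher and 1 was the same in both arrays, with differences from -0.39 to 0.08. Only 4 of the 6 passed the level filter, and 219285_s_at and 234299_s_at did not. The probe set that was the same in both NCI-H727 arrays was 219285_s_at, at 2.90. At 223981_at the QGP1 control value, 4.64, was under the filter level. The brightest NIN probe set, 225921_at, read 7.89 in QGP1 control, 8.22 in QGP1 DAXX-KD, 7.44 in NCI-H727 control and 7.05 in NCI-H727 DAXX-KD. The DAXX-KD array was thus above control by 1.26-fold for QGP1 and below it by 1.31-fold for NCI-H727, and the QGP1 arrays were both above the NCI-H727 arrays. 2 of the 6 probe sets carry the _x_at suffix, which marks probes that can bind other genes' transcripts. CNTRL (centriolin), a subdistal appendage protein that also acts in the last step of cell division, had the same pattern of signs. At 205642_at it read 7.10 and 7.5 in QGP1 control and DAXX-KD and 6.58 and 6.09 in NCI-H727 control and DAXX-KD. The difference was 0.40 in QGP1 and -0.49 in NCI-H727, and at 242916_at it was 0.11 and -0.24.

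Among the distal appendage genes, CEP164, the outermost component that recruits the kinase TTBK2 at the start of cilium formation, was lower in NCI-H727 DAXX-KD at all 3 probe sets. Its brightest probe set, 1558953_s_at, read 8.39 in QGP1 control, 8.49 in QGP1 DAXX-KD, 9.33 in NCI-H727 control and 8.73 in NCI-H727 DAXX-KD. NCI-H727 control was the highest of the 4 arrays. The difference was 0.10 in QGP1 and -0.60 in NCI-H727, which is 1.52-fold lower. The probe set 204251_s_at differed by 0.24 and -0.58, and 204250_s_at by 0.01 and -0.04. All 3 carry the _s_at suffix.

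SCLT1, which joins CEP83 early in the building of the distal appendage, gave opposite answers at its probe sets in NCI-H727. The brightest, 236487_at, read 8.27 in QGP1 control, 8.55 in QGP1 DAXX-KD, 7.80 in NCI-H727 control and 7.02 in NCI-H727 DAXX-KD. At 1569190_at the values were 7.10, 7.16, 7.67 and 8.29 in the same order. The first probe set was thus 1.71-fold lower and the second 1.53-fold higher in NCI-H727 DAXX-KD, while the third, 1569495_at, differed by 0.30. In QGP1 the 3 differed by 0.27, 0.07 and -0.02. No direction can be given for SCLT1 in NCI-H727; the mean of the 3 probe sets was 0.046.

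FBF1, a distal appendage protein needed for ciliary gating, and CEP89, which is needed for ciliary vesicle docking, were within 1.5-fold of their controls at every probe set. At 1555288_s_at FBF1 read 6.24 in QGP1 control, 6.13 in QGP1 DAXX-KD, 6.34 in NCI-H727 control and 6.32 in NCI-H727 DAXX-KD. Over its 3 probe sets the differences ran from -0.24 to -0.01 for QGP1 and from -0.02 to 0.08 for NCI-H727. CEP89 at 1553732_s_at read 5.90, 5.92, 6.41 and 6.57 in the same order, so the NCI-H727 arrays were above the QGP1 arrays and control and DAXX-KD were alike. Over its 6 probe sets the differences ran from -0.12 to 0.23 for QGP1, the 0.23 at 1554513_s_at, a probe set under the level filter. For NCI-H727 they ran from -0.45 to 0.26. The lowest was at 1554512_a_at, which read 5.33 in NCI-H727 control and 4.88 in DAXX-KD, a difference beyond the SD between probe sets of 1 gene.

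Higher in QGP1 DAXX-KD and lower in NCI-H727 DAXX-KD was the commonest combination of signs: 12 of the 27 appendage probe sets had it, against 24.6% of all probe sets past the filter. Lower in both lines were 6, among them both of ODF2 (24.6% of all), and higher in both were 4 (26.4% of all). Most of these differences were small. Those of CEP164 (204251_s_at), SCLT1 (236487_at), NIN (225921_at) and CNTRL (205642_at) were larger in both lines than the SD between probe sets of 1 gene. They still lay inside the middle 95% of all probe sets past the filter. That range was -0.49 to 0.51 in QGP1 and -0.84 to 0.52 in NCI-H727. The SD compares probe sets on the same arrays and does not measure the spread between cultures. With 1 array per group the difference between the lines was not tested.

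**Figure D2:**
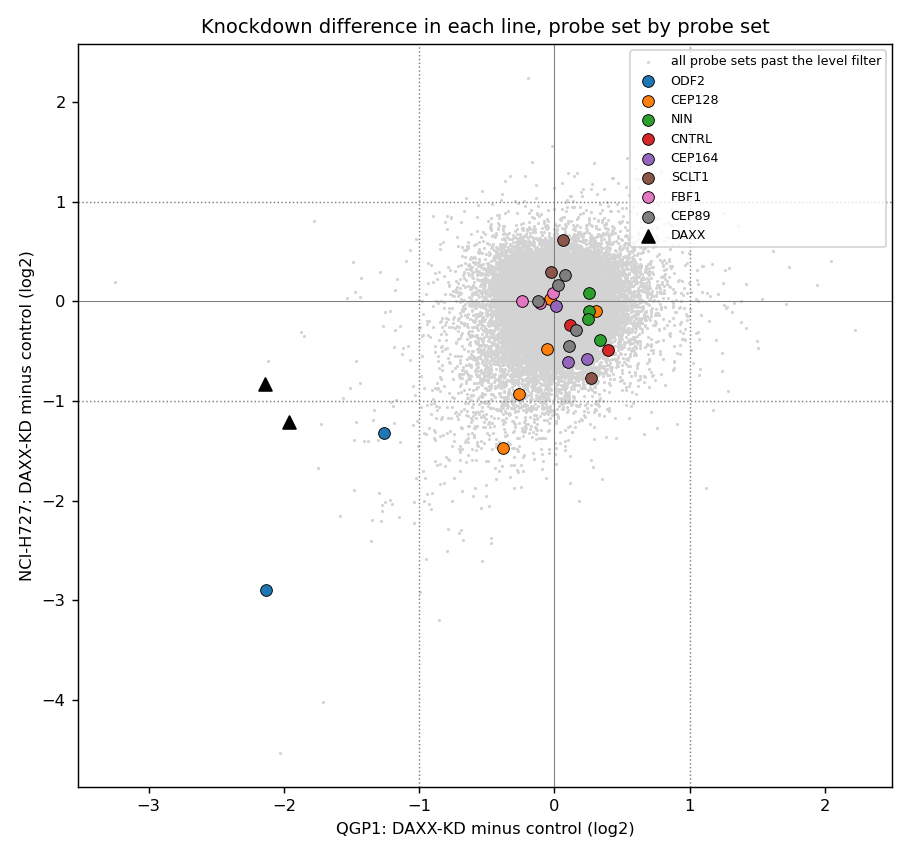
Log2 difference, DAXX-KD minus control, in QGP1 (x axis) against NCI-H727 (y axis); grey points are all 32768 probe sets past the level filter, coloured circles the 27 appendage probe sets, triangles the 2 DAXX probe sets, and dotted lines mark 2-fold. ODF2 at -2.13 and -2.90 and at -1.26 and -1.32 lies in the lower left, and the other genes lie within 0.40 of 0 on the x axis.

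CEP89 was higher in NCI-H727 than in QGP1 at 2 of 5 probe sets past the filter, and CNTRL was lower at 1 of 2. SCLT1 differed in both directions. The comparison of the lines is another contrast than the one that chose ODF2, on the same 4 arrays. NCI-H727 was compared with QGP1 by limma over the 4 arrays with treatment as a term, so each line had 2 arrays of different treatment. A probe set's own spread in this fit is how far its knockdown difference departs between the lines. That spread is then drawn towards the spread of all probe sets. The p-values thus measure only the spread between these arrays, and none between replicates of a line. After Benjamini-Hochberg adjustment over all 32768 probe sets, 10 of the 27 appendage probe sets passed 0.05, 3 higher and 7 lower in NCI-H727, 1 of them of ODF2, against 42.8% of all probe sets (19.7% higher and 23.1% lower). The 2 arrays of 1 line did not overlap those of the other for 17 of the 27, against 74.9% of all. Both shares were close to or under the background, so the appendage genes did not stand out as a group.

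Lowest in NCI-H727 relative to QGP1 was CEP128 at 1557756_a_at, with a difference of -1.39 (SE 0.16, adjusted p = 0.00254 in limma). Its NCI-H727 values, 4.63 and 4.15, were under the filter level, so it passed the filter through its QGP1 values, 5.81 and 5.75. CEP128 was lower in NCI-H727 at 1557755_at as well (-0.55, SE 0.16, limma adjusted p = 0.0462). There the NCI-H727 DAXX-KD value, 4.76, was under the filter level and the NCI-H727 control value, 4.86, was at its edge. No order of the lines is read from these CEP128 calls, and its other 3 probe sets did not pass. SCLT1 passed at all 3 probe sets but not in 1 direction: -1.0 (SE 0.27) at 236487_at and -0.65 (SE 0.15) at 1569495_at, but 0.85 (SE 0.18) at 1569190_at, so no order of the lines can be given for it. CNTRL was lower in NCI-H727 at 205642_at (-0.96, SE 0.24, limma adjusted p = 0.0266) and NIN at 225921_at (-0.81, SE 0.21, limma adjusted p = 0.031), while the other 3 NIN probe sets past the filter were 0.14 to 0.27 higher in NCI-H727 and did not pass. CEP89 was higher in NCI-H727 at 1553732_s_at (0.58, SE 0.14, limma adjusted p = 0.0236) and at 1563919_a_at (0.53, SE 0.14, limma adjusted p = 0.0301). The other CEP89 probe sets past the filter were 0.03 to 0.48 higher in NCI-H727 and did not pass. Nor did CNTRL at 242916_at, with a difference of -0.24.

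ODF2 passed at 225617_at, at -0.88 (SE 0.22, limma adjusted p = 0.0263), and not at 210415_s_at, at 0.05 (SE 0.13, limma adjusted p = 0.805). In the control arrays alone its 2 probe sets differed between the lines by -0.50 and 0.08, and in the DAXX-KD arrays alone by -1.27 and 0.02. The difference at 225617_at was thus larger between the DAXX-KD arrays than between the control arrays. All 4 arrays had served to choose ODF2, so its values between the lines are not independent of that choice. CEP164 was higher in NCI-H727 by 0.40 to 0.59 at its 3 probe sets, with limma adjusted p-values from 0.0629 to 0.219, and FBF1 differed by -0.11 to 0.14 with none passing. The number of calls depended on single arrays: without the QGP1 DAXX-KD array 1 appendage probe set passed (CEP128 at 1557756_a_at), against 25.6% of all probe sets. Without the QGP1 control array 3 passed (25.4% of all), without the NCI-H727 DAXX-KD array 6 (36.1% of all) and without the NCI-H727 control array 9 (41.3% of all), so the share over all probe sets fell as well.

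**Figure D3:**
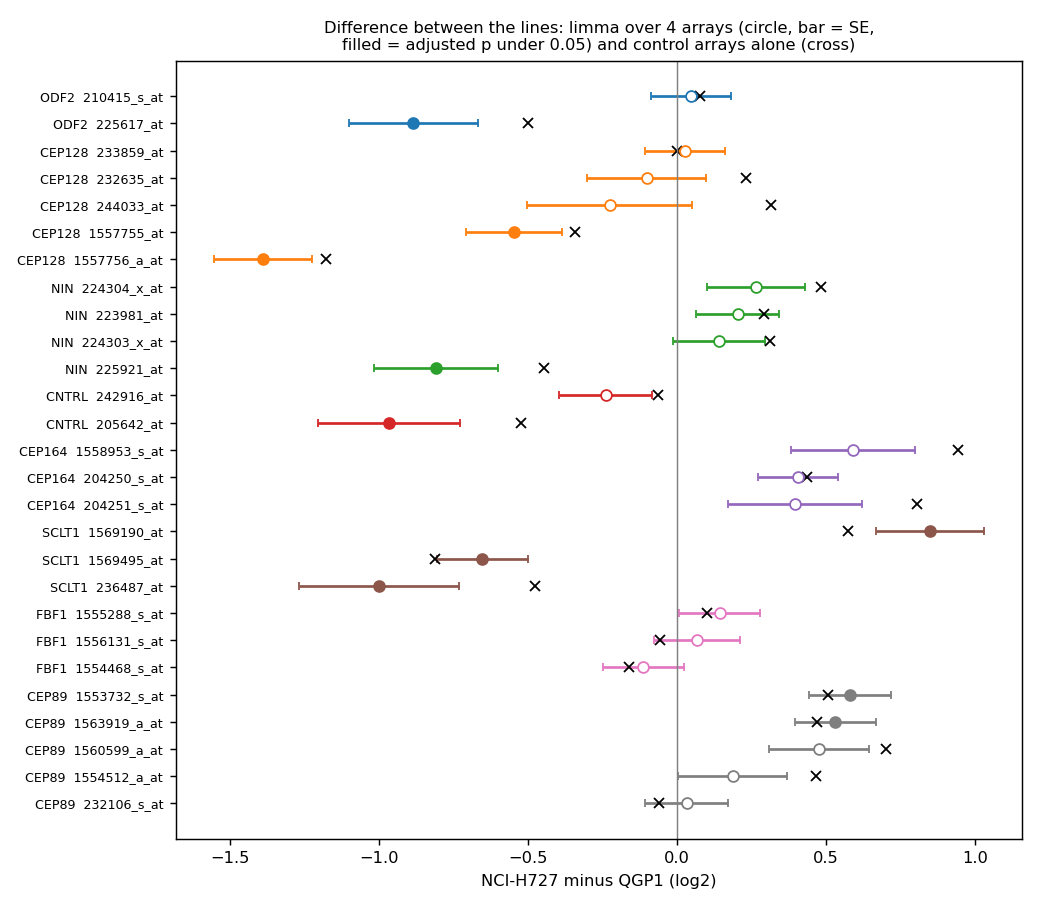
NCI-H727 minus QGP1 on the log2 scale (x axis) for the 27 appendage probe sets (y axis); circles and bars are the limma estimate over 4 arrays and its SE, filled circles have an adjusted p under 0.05, and crosses are the difference of the 2 control arrays. Filled circles lie on both sides of 0, 7 below and 3 above, and those of SCLT1 lie on both sides.

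Further genes of the centriole and the cilium were each read at the brightest probe set past the filter. Of these 0 were 2-fold lower in QGP1 (0.232% of all genes) and 1, KIF3B, was in NCI-H727 (1.32% of all genes). They did not reach the size of the ODF2 differences, but the choice of ODF2 by its low values largely set this. From the lowest, ODF2 had rank 2 of 14648 genes in QGP1 and rank 3 in NCI-H727. Counts this low are near the background for lists of this size. Of 13 other appendage genes 0 were 1.5-fold lower in QGP1 (1.32% of all genes) and 1 was in NCI-H727 (4.96% of all genes), with medians of -0.11 and 0.03 beside 0.02 and 0.02 over all 14648 genes. The 1 gene was CCDC68, a subdistal appendage protein, which read 7.75 in NCI-H727 control and 6.92 in DAXX-KD, and 6.04 and 6.05 in QGP1. MAPRE1 (EB1), which binds growing microtubule ends, had the lowest QGP1 value of this list. It read 11.85 in QGP1 control, 11.37 in QGP1 DAXX-KD, 12.44 in NCI-H727 control and 11.89 in NCI-H727 DAXX-KD. At its second probe set the values were -0.63 for QGP1 and -1.41 for NCI-H727, so MAPRE1 was lower in both lines at both probe sets. KIZ (kizuna), a centrosome protein, had the highest QGP1 value at 0.53, and CCDC120 the highest NCI-H727 value at 0.34.

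At their brightest probe sets, centriole assembly genes were mostly above their control in QGP1 and below it in NCI-H727, all by less than 1.5-fold. Of 28 genes 22 were higher in QGP1 DAXX-KD and 24 were lower in NCI-H727 DAXX-KD, with medians of 0.15 and -0.20. Over all 14648 genes these signs were held by 7838 and 6934. In either line 0 of the 28 were past 1.5-fold at the brightest probe set. The shares of all genes were 1.32% lower and 1.74% higher in QGP1, and 4.96% lower and 1.6% higher in NCI-H727. After a second quantile normalisation the NCI-H727 median was -0.11, with 20 of 28 lower. 19 of the 28 had both signs at once, against 24.7% of all genes; with that normalisation 15 of 28 did, against 20.1%. CEP97, which caps the growing centriole together with CCP110, had the lowest value in both lines, at -0.29 and -0.52. At its 2 dimmer probe sets the QGP1 values were 0.08 and 0.31 and the NCI-H727 values -0.30 and -0.21, so the sign of CEP97 in QGP1 was not shared by its probe sets. The ciliogenesis gene KIAA0586 (TALPID3) had the highest QGP1 value, 0.44, and CETN2 (centrin 2) the highest NCI-H727 value, 0.21.

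Of 22 genes of the pericentriolar material and satellites, 16 were higher in QGP1 DAXX-KD and 17 lower in NCI-H727 DAXX-KD, with medians of 0.10 and -0.12. Over all 14648 genes these signs were held by 7838 and 6934. After a second quantile normalisation 15 of the 22 were lower in NCI-H727. LRRC46 was the 1 gene past 1.5-fold, at 0.96 in QGP1, from 4.81, under the filter level, to 5.77; 1.74% of all genes were at least 1.5-fold higher. Its second probe set differed by 0.29, and its place among the pericentriolar genes is uncertain. The scaffold CDK5RAP2 had the lowest NCI-H727 value, -0.56, but its other 2 probe sets were higher there by 0.10 and 0.28. NEDD1, which brings the gamma-tubulin ring to the centrosome, had the lowest QGP1 value, -0.27, and TUBGCP2, a subunit of that ring, the highest NCI-H727 value, 0.18.

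Of 42 primary cilium genes 1 was at least 1.5-fold lower (1.32% of all genes) and 2 were at least 1.5-fold higher (1.74% of all genes) in QGP1. In NCI-H727 4 were at least 1.5-fold lower (4.96% of all genes) and 0 higher (1.6% of all genes). The medians were 0.07 and -0.10, the latter -0.015 after a second quantile normalisation. KIF3B, a motor subunit of kinesin-2, which carries cargo to the tip of the cilium, was the 1 gene of all these lists past 1.5-fold in the same direction in both lines at its brightest probe set; MAPRE1 was so at its dimmer one. It read 10.28 in QGP1 control, 9.68 in QGP1 DAXX-KD, 10.49 in NCI-H727 control and 9.44 in NCI-H727 DAXX-KD. Both control arrays were above both DAXX-KD arrays, as for ODF2, and its second probe set gave -0.49, short of 1.5-fold, and -1.05. BBS10, a chaperonin-like protein that helps assemble the BBSome, had the highest QGP1 value, 0.70, and the transport subunit IFT22 the highest NCI-H727 value, 0.56. Of the genes of the ODF and sperm tail list 7 passed the filter, and 0 were past 1.5-fold in either line, a count near the background for a list of this size.

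**Figure D4:**
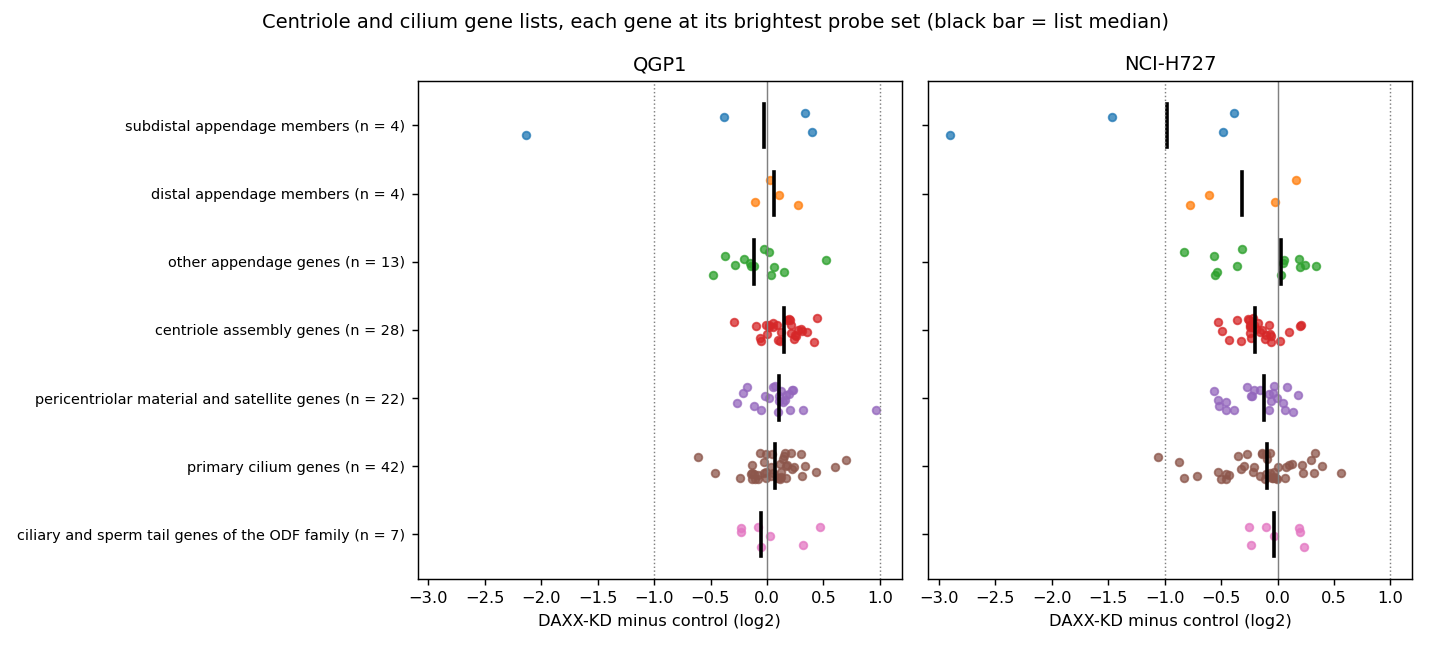
Log2 difference, DAXX-KD minus control (x axis), in QGP1 (left) and NCI-H727 (right) for 7 lists of centriole and cilium genes (y axis), 1 point per gene at its brightest probe set; black bars are list medians and dotted lines mark 2-fold. ODF2 is the lowest point in both panels, and the 28 centriole assembly genes have medians of 0.15 in QGP1 and -0.20 in NCI-H727.

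The genes whose pattern over the 4 arrays was most like that of ODF2 were PROSER1, ECI1, MRPL45, SCARB2 and GMPS. Likeness was the Euclidean distance between the 4 log2 values at the brightest probe set after each gene's own mean was subtracted, with a median of 2.78 over 14647 genes. PROSER1 was nearest, at a distance of 0.81, and GMPS the fifth, at 0.93. PROSER1 read 9.86 in QGP1 control, 8.52 in QGP1 DAXX-KD, 9.10 in NCI-H727 control and 6.91 in NCI-H727 DAXX-KD. All 5 were lower in both DAXX-KD arrays, from -1.71 (ECI1) to -0.85 (GMPS) in QGP1 and from -4.02 (ECI1) to -1.92 (SCARB2) in NCI-H727. The choice by likeness to ODF2 largely sets this direction and the larger size in NCI-H727, so neither is a result about these genes. 2 of the 5, ECI1 and MRPL45, have 1 probe set, and at the others all further probe sets were lower too, the smallest being 215754_at of SCARB2 at -0.10 in both lines. None of the 5 is in the centriole or cilium lists.

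The chromosome 9 neighbours of ODF2 differed from their controls by less than ODF2 did, which the choice of ODF2 by its low values largely set. RefSeq order places TRUB2, COQ4, SLC27A4, URM1 and CERCAM before it and GLE1, SPTAN1, DYNC2I2, SET and PKN3 after it, counting protein-coding genes with a probe set. Their differences ranged from -0.14 to 0.24 in QGP1 and from -0.36 (SPTAN1) to 0.56 (PKN3) in NCI-H727, and 0 of the 10 were 2-fold lower in either line, a count near the background of 0.232% and 1.32% of all genes. GLE1, the next gene on the far side, an mRNA export factor, read 9.33 in QGP1 control, 9.33 in QGP1 DAXX-KD, 9.57 in NCI-H727 control and 9.35 in NCI-H727 DAXX-KD. CERCAM, the nearest on the near side, differed by 0.24 and 0.26.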

How the data were processed

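Expression was measured in 4 samples, 1 array each. Per the submitters' processing notes, the authors made the deposited log2 values with RMA in affy 1.40.0 under R 3.0.3. Quantile normalisation removes a shift shared by most genes, and RMA compresses differences near background. Genes were named from the platform annotation: 41091 probe sets had 1 symbol, 1801 several and 11721 none. From the table were computed DAXX-KD minus control per line and, with limma 3.58.1 in R 4.3.3, NCI-H727 minus QGP1 with treatment as a term (1 residual and 4.04 prior degrees of freedom, two-sided, Benjamini-Hochberg). On simulated data of this design with 32768 probe sets, the fit called 7 of 100 probe sets changed by 1 (log2) and 97 of 100 changed by 2, and 8.77% of its calls were unchanged probe sets. No others were changed in the simulation, whereas the fit to the data called 42.8% of all probe sets. The adjusted threshold depends on that share, so these rates do not carry over to the calls between the lines.

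No knockdown test was made, since ODF2 was chosen by that contrast and each group has 1 array. The number of arrays limits the precision. Genes were counted at 2-fold and 1.5-fold. The genes and lists were chosen with earlier results of these data known. Named genes were all 9 listed members, DAXX, the largest value in each direction per list and line, list genes past 1.5-fold the same way in both lines, the 5 genes most like ODF2 and 5 neighbours on each side. Other genes past 1.5-fold in 1 line were counted only. Alternatives were the level filter, array scaling, probe set choice and the limma settings.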

Additional observations from a re-analysis of the deposited data

Results flagged for a closer look

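At 4 probe sets the knockdown difference had opposite signs in the 2 lines, each beyond the SD between probe sets of 1 gene (0.202 in QGP1 and 0.275 in NCI-H727). That SD compares probe sets on the same arrays and does not measure the spread between cultures or between repeated arrays. CEP164 at 204251_s_at gave 0.24 for QGP1 and -0.58 for NCI-H727. SCLT1 at 236487_at gave 0.27 for QGP1 and -0.77 for NCI-H727. NIN at 225921_at gave 0.34 for QGP1 and -0.39 for NCI-H727. CNTRL at 205642_at gave 0.40 for QGP1 and -0.49 for NCI-H727. All 4 lay inside the middle 95% of all probe sets past the filter, -0.49 to 0.51 in QGP1 and -0.84 to 0.52 in NCI-H727. How many of all probe sets meet the same rule was not counted. Each of the 4 genes also had a probe set that did not meet this rule. SCLT1 at 1569190_at gave 0.07 and 0.61, and CEP164 at 204250_s_at 0.01 and -0.04. NIN at 223981_at gave 0.25 and 0.08, with its QGP1 control value under the filter level. CNTRL at 242916_at gave 0.11 and -0.24. Each line has 1 array per group, so the difference between the lines was not tested.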

How the results depend on the processing

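Within a line no paired analysis of the knockdown was possible, because each group has 1 array and the labels carry no replicate numbers. The knockdown values come from no test. A knockdown fit over the 4 arrays with line as a block could be made, but it was not, since ODF2 was chosen by that contrast. ODF2 kept its direction at both probe sets under the 3 scaling alternatives, with values from -2.15 to -1.21 in QGP1 and from -2.94 to -1.32 in NCI-H727. Without _s_at and _x_at probe sets 1 member probe set reached 2-fold lower for QGP1, and averaging the probe sets of each gene left 1 gene per line, ODF2, with CEP128 in NCI-H727 at -0.59 in place of -1.47. SCLT1 in NCI-H727 turned from -0.77 to 0.046 when its probe sets were averaged. Leaving out each array in turn, with line as the only term and the lone array of a line assumed to vary like the other line, gave 1 to 9 member calls between lines, and 8322 (without QGP1 control) to 13529 (without NCI-H727 control) calls over all probe sets, against 14035. The ODF2 call between lines at 225617_at held in 6 of 11 settings, with adjusted p from 0.0155 to 0.927 in limma, and CEP128 at 1557756_a_at passed in 10 of 10. At this CEP128 probe set both NCI-H727 values were under the filter level, so its calls set QGP1 signal against values near background. The medians of 4 wider lists kept their signs under the 3 scalings, which were applied to them after the data were seen and not to the ODF and sperm tail list. After a second quantile normalisation 3 NCI-H727 medians moved by over 1.5 times: primary cilium genes from -0.10 to -0.015, centriole assembly genes from -0.20 to -0.11 and other appendage genes from 0.03 to 0.11, while the median of all genes went from 0.02 to 0.05. Each value rests on 1 array per group, and values under 4.85 lie near background.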
